A study of Homo sapiens with 9 samples.

Results

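The integrated stress response and amino acid genes described here are 33 genes chosen by symbol: 5 transcription factors, 7 stress effectors and feedback genes, 6 enzymes of amino acid synthesis and one-carbon metabolism, 4 amino acid transporters, and 11 genes of tRNA charging and export. All 33 symbols were rows of the deposited table, which holds 25540 gene symbols. Of these, 30 had a mean of at least 1 TPM, a transcript abundance scaled by transcript length and library total, over the 9 libraries and were among the 10939 genes tested; STC2, PHGDH and ASNS were below that limit. The rule takes rows by symbol and uses no measured value, but the members were chosen with earlier results of these data known.

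In the integrated stress response, several kinases (GCN2, PERK, PKR and HRI) phosphorylate the translation initiation factor eIF2, which lowers protein synthesis in general while the mRNA of the transcription factor ATF4 is translated more. ATF4, usually paired with a C/EBP family protein, then binds C/EBP-ATF response elements and raises transcription of genes for amino acid synthesis, amino acid import and tRNA charging, as well as genes such as DDIT3, TRIB3 and CHAC1. Because ATF4 protein is set largely by translation, its mRNA level is only one part of its activity, and RNA sequencing does not measure the other. KHSRP is an RNA-binding protein known for binding AU-rich elements in mRNAs and promoting their decay.

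CAL-1 is an established human line of BPDCN, a blastic plasmacytoid dendritic cell neoplasm. RNA sequencing was done on 3 groups of 3 libraries: NTC, the controls, labelled with a WT genotype, and KHSRPi#1 and KHSRPi#2, in which KHSRP had been repressed by CRISPR interference, a method that silences a gene without cutting it. All libraries came from the same parental line, no drug or other treatment is named for any group, and the labels name 1 batch for all 9; they do not say what distinguishes #1 from #2, which promoter drives the silencer, or whether a group is 1 clone. Whether replicates were separate cultures is not stated either, so the p-values rest on a spread between libraries that may be technical.

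KHSRP, the targeted gene, read 253, 244 and 216 TPM in the NTC libraries and between 33.7 and 36.5 TPM in the 6 knockdown libraries, 14.8% of the control mean. Of 10 plasmacytoid dendritic cell markers, 8 had a mean of at least 1 TPM and 1 was at 0 in all 9 libraries. IRF8, TCF4, TCL1A and CLEC4C were detected in every library, and the list summed to 3474 to 4131 TPM. The T cell and erythroid lists summed to at most 0.222 and 0.164 TPM. The epithelial or fibroblast list summed to 1.79 to 2.82 TPM and the B cell list to 3.63 to 5.49 TPM. The monocyte and granulocyte list summed to 36.9 to 91.0 TPM, nearly all of it LYZ, with FCN1 and ELANE listed at 0 throughout; it was lowest in the replicate 3 library of each group (36.9, 42.0 and 37.1 TPM). IL3RA, a defining marker, was listed at 0 in all 9 libraries, as were U2AF1 and SLC25A6, which all cells use, so a 0 in this table may be a failed estimate. Between 13966 and 14462 symbols were above 0 per library; the table holds no read totals, so depth is unknown. In each group the replicate 3 library stood apart: on the first principal component (38.3% of the variance) these libraries lay between 12.3 and 14.1 and the other 6 between -8.79 and -3.96. Results are therefore given from the fit without covariates and from a fit with a term for the replicate 3 libraries.

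Before the levels, a sequence that was searched for in the promoters of these genes is shown. The core of the C/EBP-ATF response element, TGATGNAA (N is any base, both strands searched), was looked for in RefSeq promoter windows of 300 bases, 250 before to 50 after each start, on GRCh38.p14. Of the 33 genes, 29 were matched in the RefSeq promoter table, with 44 windows; PSPH, SHMT2, SLC7A11 and LARS were not matched. The motif was in a window of 11 of the 29: CEBPG, CHAC1, ASNS, SLC3A2, SLC7A1, AARS, GARS, NARS, MARS, IARS and CARS. For comparison, 4.46% of the 27305 genes in the table, and 3.62% of all 35116 windows, hold it. The genes were listed in part as ATF4 targets, so a higher share is partly built into the list and was not tested. A gene with more windows also has more places for a match. In 7 of the 11 genes the 8 letters were TGATGCAA, in ASNS, SLC7A1 and GARS TGATGAAA, and in SLC3A2 TGATGTAA. The 7 stretches with TGATGCAA and the one of ASNS, each 30 bases long, are printed. The search fixed every letter of the core except N, so the likeness of the cores is not a result. The capitals mark the motif, and each is written 5′ to 3′ on the strand on which it reads TGATGNAA.
CEBPG, chr19:33374060-33374089, plus strand, 42 bases before the start: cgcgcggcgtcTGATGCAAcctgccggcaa
CHAC1, chr15:40953251-40953280, minus strand, 209 bases before the start: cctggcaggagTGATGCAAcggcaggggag
ASNS, chr7:97872458-97872487, minus strand, 68 bases before the start: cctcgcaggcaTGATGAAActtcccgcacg
AARS, chr16:70289675-70289704, plus strand, 187 bases before the start: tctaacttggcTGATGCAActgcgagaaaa
NARS, chr18:57621804-57621833, minus strand, 15 bases after the start: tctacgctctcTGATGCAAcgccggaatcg
MARS, chr12:57488053-57488082, minus strand, 4 bases before the start: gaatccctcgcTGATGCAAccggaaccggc
IARS, chr9:92293692-92293721, plus strand, 13 bases before the start: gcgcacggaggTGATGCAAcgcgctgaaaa
CARS, chr11:3057407-3057436, plus strand, 2 bases before the start: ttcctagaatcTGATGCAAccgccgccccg

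A match is a description of the letters in the window and not a measured binding site. In IARS, AARS and CARS the motif lies on the strand opposite to the gene, and in CHAC1 and MARS likewise. Each distance is that of the motif base that comes first in the direction of the gene. The motifs of MARS and CARS therefore run across the start.

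As a group these genes were abundant in CAL-1. TPM is scaled per transcript length, so levels can be compared between genes. The median of the mean levels of the 30 tested genes was 144 TPM against 21.2 TPM over all tested genes, and 15 of the 30 lay above 90% of tested genes. The coefficient of variation over the 9 libraries had a median of 6.37% against 7.81% over all tested genes, which were not matched to these genes for level. SLC7A5, ATF4 and NARS were the most abundant, and CHAC1 and SLC7A11 were the lowest of the 30 tested genes.

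**Figure D1:**
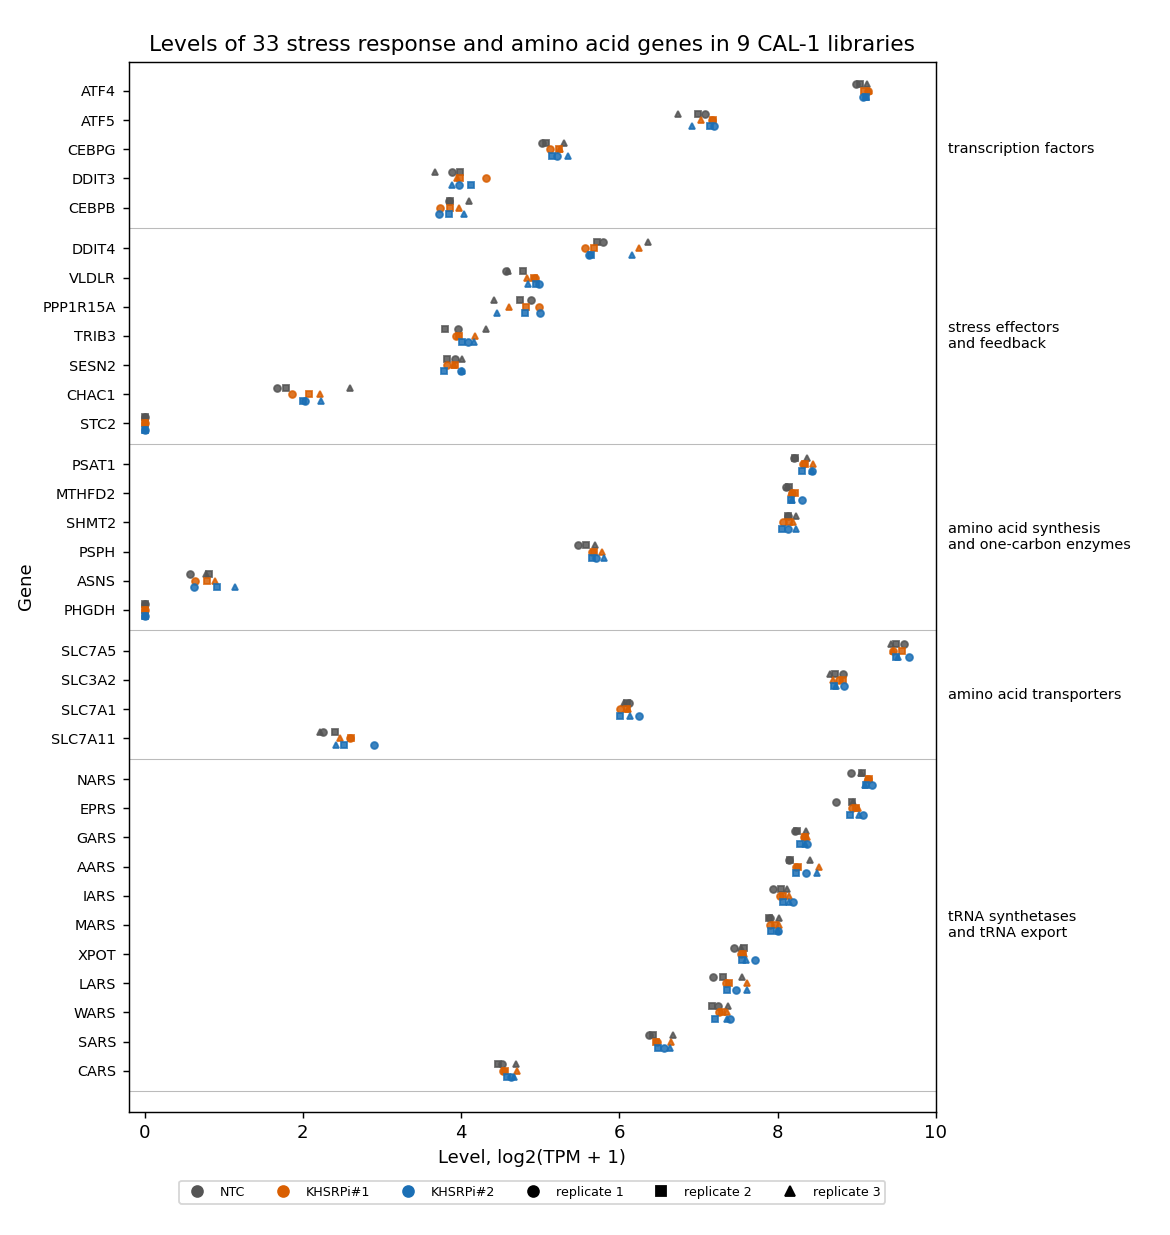
Level of each of the 33 genes on a log2(TPM + 1) axis in the 9 libraries, grouped by role; colour gives the group and symbol shape the replicate. Most genes differ far more from each other than between groups, and STC2 and PHGDH are at 0 in all 9 libraries.

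The comparison the design implies is KHSRP knockdown against control, with KHSRPi#1 and KHSRPi#2 averaged and each alone; all 3 contrasts use the same NTC libraries and so are not independent. In the fit without covariates, 0 of the 30 tested genes were called at an adjusted p under 0.05 for the mean of the knockdown groups (limma, Benjamini-Hochberg over 10939 genes), against 0.0823% of all tested genes. At an unadjusted p under 0.05 there were 4 of 30, VLDLR, NARS, SLC7A11 and PSAT1, all higher in the knockdown, against 7.93% of all tested genes. The counts were also 0 of 30 for KHSRPi#1 alone and for KHSRPi#2 alone, against 0.0548% of tested genes in each, with 2 and 3 of 30 at an unadjusted p under 0.05 against 5.24% and 6.93%.

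With the replicate 3 term, 2 of 30 genes rose, ATF5 and VLDLR, and 0 fell, against 1.27% of all tested genes called higher and 0.485% called lower; 12 of 30 had an unadjusted p under 0.05, against 17.5%. In that fit KHSRPi#1 and KHSRPi#2 alone again had 0 of 30 called, against 0.676% and 0.804%. The differences were small in every role group: the log2 fold change, which is on the log2(TPM + 1) scale and understates low genes, ran from -0.14 for DDIT4 to 0.29 for SLC7A11. It was above 0 in 26 of 30 genes, with a median of 0.07, where 58.3% of all tested genes were above 0 and their median was 0.02. Under median-ratio rescaling 24 of 30 were above 0 with a median of 0.05, and under quantile normalization 25 with 0.06, while the share of all tested genes above 0 was 49.7% under quantile normalization. Without NTC replicate 1 the median of the 30 genes was 0.04, and that of all tested genes -0.001. Without NTC replicate 3 these medians were 0.11 and 0.025.

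**Figure D2:**
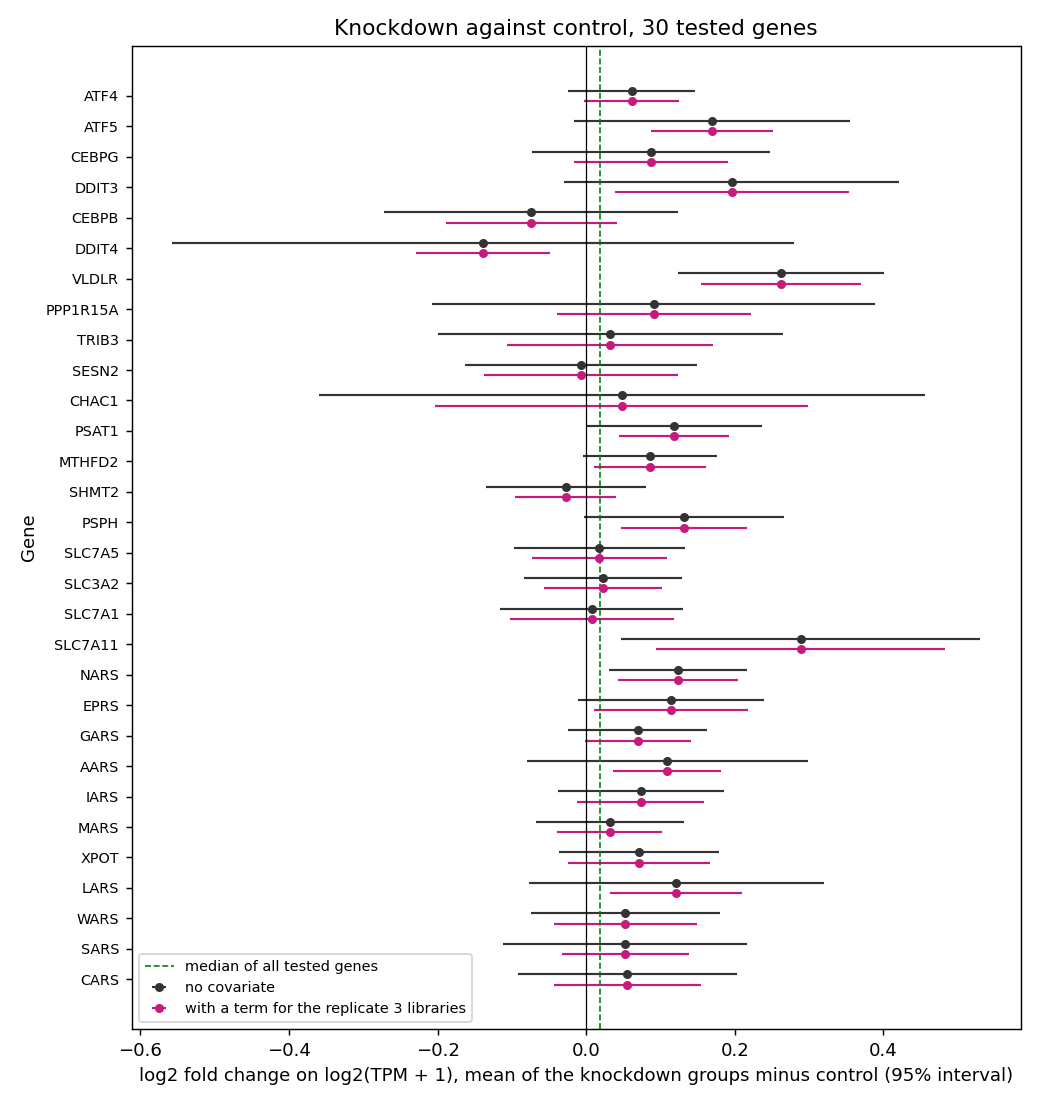
Log2 fold change on log2(TPM + 1), mean of both knockdown groups minus control, for the 30 tested genes with 95% intervals, from the fit without covariates (black) and with a term for the replicate 3 libraries (pink); the dashed line is the median of all tested genes. Most points lie slightly right of 0, and the intervals of DDIT4 and AARS narrow when the term is added.

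Markers of the line's own cell type were also compared between knockdown and control. Of 10 plasmacytoid dendritic cell markers 8 were tested; all 8 had a log2 fold change above 0, from 0.03 to 0.99 with a median of 0.13. None was called without covariates, against 0.0823% of all tested genes. In that fit 4 of 8 had an unadjusted p under 0.05 in limma, against 7.93%. With the replicate 3 term 4 of 8 rose, GZMB, CLEC4C, IRF7 and TCL1A, against 1.27% of all tested genes called higher. All 6 knockdown libraries lay above all 3 controls in 2 of the 8, against 3.10% of all tested genes. GZMB, which encodes granzyme B, read 41.2 ± 10.6 TPM in NTC (SD, n = 3) and 83.5 ± 21.6 TPM in the knockdown (SD, n = 6), with all 6 knockdown libraries above all 3 controls (log2 fold change 0.99, limma adjusted p = 0.310, and 8.6e-08 with the term). CLEC4C, a surface lectin of these cells, read 56.7 ± 9.03 and 72.9 ± 8.94 TPM with overlapping groups. The calls of CLEC4C and IRF7 were lost without NTC replicate 3 (adjusted p = 0.0611 and 0.131), and that of TCL1A held in 3 of the 9 fits that leave out 1 library. The whole list summed to 3663 ± 270 TPM in NTC (SD, n = 3) and 3896 ± 211 TPM in the knockdown (SD, n = 6). Replicate 3 minus the mean of replicates 1 and 2 had a median of -0.33 over the 8 markers, on the log2(TPM + 1) scale. In all 3 groups 5 of 8 were below both other replicates, against 16.6% of all tested genes. Likewise 1 of 8 was above both, against 26.0%. In bulk RNA, a different share of cells in a state and a different amount of RNA per cell cannot be told apart, and the part of either in the differences of the stress and amino acid genes was not tested.

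Among the transcription factors, ATF4 itself was at a like level in every group. Its 3 NTC libraries read 509, 525 and 560 TPM, the KHSRPi#1 libraries 564, 546 and 570, and the KHSRPi#2 libraries 539, 552 and 553. The groups overlapped: the highest control lay above 4 of the 6 knockdown libraries. The log2 fold change was 0.06 (SE 0.04, 95% interval -0.02 to 0.15, limma adjusted p = 0.737).

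ATF5, a relative of ATF4 that is likewise translated more when eIF2 is phosphorylated, read 134, 126 and 106 TPM in NTC, 142, 144 and 129 in KHSRPi#1, and 146, 141 and 120 in KHSRPi#2. The replicate 3 library was the lowest of each group, and 2 knockdown libraries, both of replicate 3, were below the highest control. Group means were 122 ± 14.6 (SD, n = 3), 139 ± 8.12 and 136 ± 13.6 TPM, and the log2 fold change was 0.17 (SE 0.08, 95% interval -0.02 to 0.36, limma adjusted p = 0.661). With the replicate 3 term the fold change was the same, its SE was 0.04 and the limma adjusted p was 0.0456; the call was lost when the term was combined with median-ratio rescaling (adjusted p = 0.0686) or quantile normalization (0.0631), and without any 1 library other than NTC replicate 1, up to 0.280. On GENCODE 29, 626 of the 2954 exonic bases of ATF5 are shared with NUP62 on the opposite strand, and no source used here states whether counting was by strand, so reads of the pair cannot be told apart there. NUP62 read 94.2 ± 2.36 TPM (SD, n = 3) in control and 87.9 ± 3.35 (SD, n = 6) in knockdown libraries.

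DDIT3, which encodes CHOP, a factor linked to cell death under prolonged stress, read 13.8, 14.8 and 11.7 TPM in NTC, 19.0, 14.8 and 14.5 in KHSRPi#1, and 14.8, 16.5 and 13.8 in KHSRPi#2. The groups overlapped, and the highest value came from 1 library, KHSRPi#1 replicate 1. Its log2 fold change was 0.20 (SE 0.10, 95% interval -0.03 to 0.42, limma adjusted p = 0.675). DDIT3 shares 355 of its 1307 exonic bases with MARS on the opposite strand, and MARS is also one of the 33 genes and far more abundant, at 235 to 258 TPM, and reads from these bases cannot be assigned to either gene without strand.

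CEBPG and CEBPB encode C/EBP proteins that can pair with ATF4. CEBPG read 31.4, 32.7 and 38.3 TPM in NTC, 33.8, 36.6 and 36.9 in KHSRPi#1, and 36.1, 34.5 and 39.6 in KHSRPi#2 (log2 fold change 0.09, SE 0.07, limma adjusted p = 0.807). CEBPB read 13.4, 13.5 and 16.1 TPM in NTC, 12.3, 13.5 and 14.7 in KHSRPi#1, and 12.2, 13.4 and 15.4 in KHSRPi#2 (log2 fold change -0.07, SE 0.09, limma adjusted p = 0.877). Both overlapped between groups, and in both the replicate 3 library was the highest of each group. Summed over the 5 factors, where ATF4 makes up most of the total, the level was 715 ± 15.1 TPM in NTC, 764 ± 8.36 in KHSRPi#1 and 749 ± 8.05 in KHSRPi#2 (SD, n = 3 each).

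Of the stress effectors and feedback genes, VLDLR had the smallest p of all 30 genes. VLDLR encodes the very low density lipoprotein receptor, a lipoprotein and reelin receptor (chromosome 9, 2621834 to 2660053, plus strand, hg38). It read 22.8, 26.5 and 23.1 TPM in NTC, 29.6, 29.2 and 27.4 in KHSRPi#1, and 30.6, 29.8 and 27.8 in KHSRPi#2. All 6 knockdown libraries were above all 3 controls, and the replicate 3 library was the lowest of each knockdown group. Means were 24.1 ± 2.04, 28.8 ± 1.17 and 29.4 ± 1.46 TPM (SD, n = 3 each), and the log2 fold change was 0.26 (SE 0.06, 95% interval 0.12 to 0.40, limma unadjusted p = 0.00173, adjusted p = 0.310). It was 0.25 for KHSRPi#1 (adjusted p = 0.785) and 0.28 for KHSRPi#2 (adjusted p = 0.443), each set against the same controls.

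With the replicate 3 term VLDLR rose with a limma adjusted p of 0.0247 (SE 0.05); replicates 1 and 2 alone gave a log2 fold change of 0.27 with an adjusted p of 0.215. The call with the term held without NTC replicate 2 and without KHSRPi#2 replicate 2, and held narrowly without KHSRPi#2 replicate 1; without any of the other 6 libraries it was lost, with adjusted p-values up to 0.136. VLDLR shares 738 of its 9339 exonic bases with the antisense gene VLDLR-AS1, which read 4.91 ± 0.457 TPM in control and 6.05 ± 0.679 TPM in knockdown libraries (SD, n = 3 and 6; log2 fold change 0.25, limma adjusted p = 0.568).

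DDIT4, a stress-induced inhibitor of mTORC1, had the lowest fold change. Its NTC libraries read 54.6, 51.8 and 81.1 TPM, the KHSRPi#1 libraries 46.3, 50.4 and 75.2, and the KHSRPi#2 libraries 48.0, 49.0 and 70.5. Replicate 3 was the highest library of every group by a wide margin, and this spread between replicates was larger than the difference between groups. The log2 fold change was -0.14 (SE 0.19, 95% interval -0.56 to 0.28, limma adjusted p = 0.895), and with the replicate 3 term the SE was 0.04 and the adjusted p 0.117. DDIT4 shares 847 of its 2058 exonic bases with the antisense gene DDIT4-AS1, so without strand reads from these bases cannot be assigned to either gene.

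The other members of this group did not pass in either fit. TRIB3, a pseudokinase that feeds back on ATF4 and CHOP, read 12.9 to 18.8 TPM. SESN2, a leucine-sensing sestrin, read 12.8 to 15.2 TPM, and PPP1R15A, the GADD34 subunit that directs the phosphatase of eIF2, read 20.4 to 30.8 TPM. CHAC1, which breaks down glutathione, read 2.19, 2.46 and 5.05 TPM in NTC, 2.65, 3.22 and 3.63 in KHSRPi#1, and 3.07, 3.00 and 3.71 in KHSRPi#2, so the highest of all 9 values was a control. STC2, which encodes the secreted glycoprotein stanniocalcin 2, was listed at 0 in all 9 libraries, with the same limit on what a 0 means here.

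Of the serine pathway, PSAT1, the second enzyme, was its most abundant measured member, and PSPH, the last, read 43.6 to 55.0 TPM. PHGDH, the first enzyme, was listed at 0 in all 9 libraries, which in this table may be a failed estimate and is not read as a level. PSAT1 read 294, 296 and 330 TPM in NTC, 318, 325 and 349 in KHSRPi#1, and 343, 315 and 346 in KHSRPi#2. The highest control was above 3 of the 6 knockdown libraries. The log2 fold change of PSAT1 was 0.12 (SE 0.05, 95% interval 0.00 to 0.24, limma unadjusted p = 0.0490, adjusted p = 0.629; 0.102 with the replicate 3 term).

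ASNS, which makes asparagine and is a classical ATF4 target, averaged 0.751 TPM over the 9 libraries, under the limit for testing. It read 0.494, 0.760 and 0.712 TPM in NTC, 0.557, 0.730 and 0.852 in KHSRPi#1, and 0.542, 0.894 and 1.22 in KHSRPi#2. The groups overlapped, and replicate 1 was the lowest library of each. In a fit without the filter on low values, over 16496 genes, the log2 fold change was 0.11 (SE 0.12, limma adjusted p = 0.885). On GENCODE 29, 1985 of the 4455 exonic bases of ASNS are shared with AC079781.5 on the same strand.

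SHMT2 and MTHFD2 act in mitochondrial one-carbon metabolism, where SHMT2 turns serine into glycine and MTHFD2 oxidises the folate-bound one-carbon unit. SHMT2 read 280, 280 and 299 TPM in NTC, 268, 283 and 292 in KHSRPi#1, and 278, 265 and 299 in KHSRPi#2 (log2 fold change -0.03, SE 0.05, limma adjusted p = 0.919). MTHFD2 read 274, 281 and 276 TPM in NTC, 290, 296 and 288 in KHSRPi#1, and 316, 287 and 289 in KHSRPi#2. All 6 knockdown libraries of MTHFD2 were above all 3 controls, with means of 277 ± 3.30, 291 ± 4.50 and 297 ± 16.3 TPM (SD, n = 3 each), and the limma adjusted p was 0.636.

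The mean levels of the transporters ran from 4.66 TPM for SLC7A11 to 733 TPM for SLC7A5. SLC7A5 and SLC3A2 encode the light and heavy chains of the LAT1 transporter of large neutral amino acids. SLC7A5 read 772, 717 and 692 TPM in NTC, 699, 760 and 701 in KHSRPi#1, and 807, 719 and 731 in KHSRPi#2 (log2 fold change 0.02, SE 0.05, 95% interval -0.10 to 0.13, limma adjusted p = 0.957). Its groups overlapped, and the sign of its fold change turned with the scaling, being below 0 under median-ratio rescaling. SLC3A2 read 405 to 456 TPM, and the ratio of SLC7A5 to SLC3A2 stayed between 1.61 and 1.77 in the 9 libraries. SLC7A1, a carrier of cationic amino acids, read 63.1 to 74.7 TPM.

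SLC7A11, the light chain of the cystine and glutamate exchanger that also pairs with SLC3A2, had the largest fold change of the 30 genes at a low level. It read 3.76, 4.31 and 3.66 TPM in NTC, 5.04, 5.07 and 4.53 in KHSRPi#1, and 6.47, 4.72 and 4.34 in KHSRPi#2. All 6 knockdown libraries were above all 3 controls, although KHSRPi#2 replicate 3 was only just above NTC replicate 2. The log2 fold change was 0.29 (SE 0.11, 95% interval 0.05 to 0.53, limma unadjusted p = 0.0237, adjusted p = 0.550; 0.131 with the replicate 3 term).

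Aminoacyl-tRNA synthetases attach amino acids to their tRNAs, and XPOT carries tRNAs out of the nucleus. None of the 11 tRNA genes passed in either fit, yet all 11 had a log2 fold change above 0, from 0.03 to 0.12. Without NTC replicate 1 it was 10 of 11, and it was 11 of 11 under median-ratio rescaling, under quantile normalization and without each of the other 8 libraries. The summed level of the 11 genes was 2713 ± 172 TPM in NTC (SD, n = 3) and 2888 ± 105 TPM in the knockdown (SD, n = 6), so the difference was close to the spread between the control libraries.

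NARS, the asparagine enzyme and the most abundant of the synthetases, read 485, 534 and 531 TPM in NTC, 566, 566 and 558 in KHSRPi#1, and 586, 555 and 547 in KHSRPi#2. All 6 knockdown libraries were above all 3 controls. The log2 fold change was 0.12 (SE 0.04, 95% interval 0.03 to 0.22, limma unadjusted p = 0.0137, adjusted p = 0.516; 0.119 with the replicate 3 term).

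The rest of the set had the same small differences with overlapping groups. The alanine enzyme AARS read 282 to 365 TPM, the glycine enzyme GARS 298 to 331, the dual glutamate and proline enzyme EPRS 426 to 538, the isoleucine enzyme IARS 244 to 292 and the methionine enzyme MARS 235 to 258. The leucine enzyme LARS read 144 to 195 TPM, the tryptophan enzyme WARS 143 to 168, the serine enzyme SARS 81.9 to 101 and the cysteine enzyme CARS 21.0 to 25.1, while XPOT read 173 to 210. AARS, LARS, SARS and CARS were each highest in the replicate 3 library of all 3 groups.

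Over the 30 tested genes, the 6 knockdown libraries were all above the 3 controls in 4 genes, VLDLR, MTHFD2, SLC7A11 and NARS, and all below them in 0. Over all tested genes these shares were 3.10% and 1.57%. KHSRPi#2 and KHSRPi#1 were compared directly as well. In limma, 0 of 30 genes were called, against 0.00% of tested genes, and 0 of 30 had an unadjusted p under 0.05, against 1.05%. The differences of KHSRPi#2 minus KHSRPi#1 ran from -0.09 for DDIT3 to 0.06 for TRIB3 on the log2 scale. The interval of this difference was -0.13 to 0.19 for VLDLR and -0.25 to 0.18 for ATF5. It was widest for DDIT4 (-0.51 to 0.46) and CHAC1 (-0.44 to 0.50). Differences inside these bounds were therefore not excluded.

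**Figure D3:**
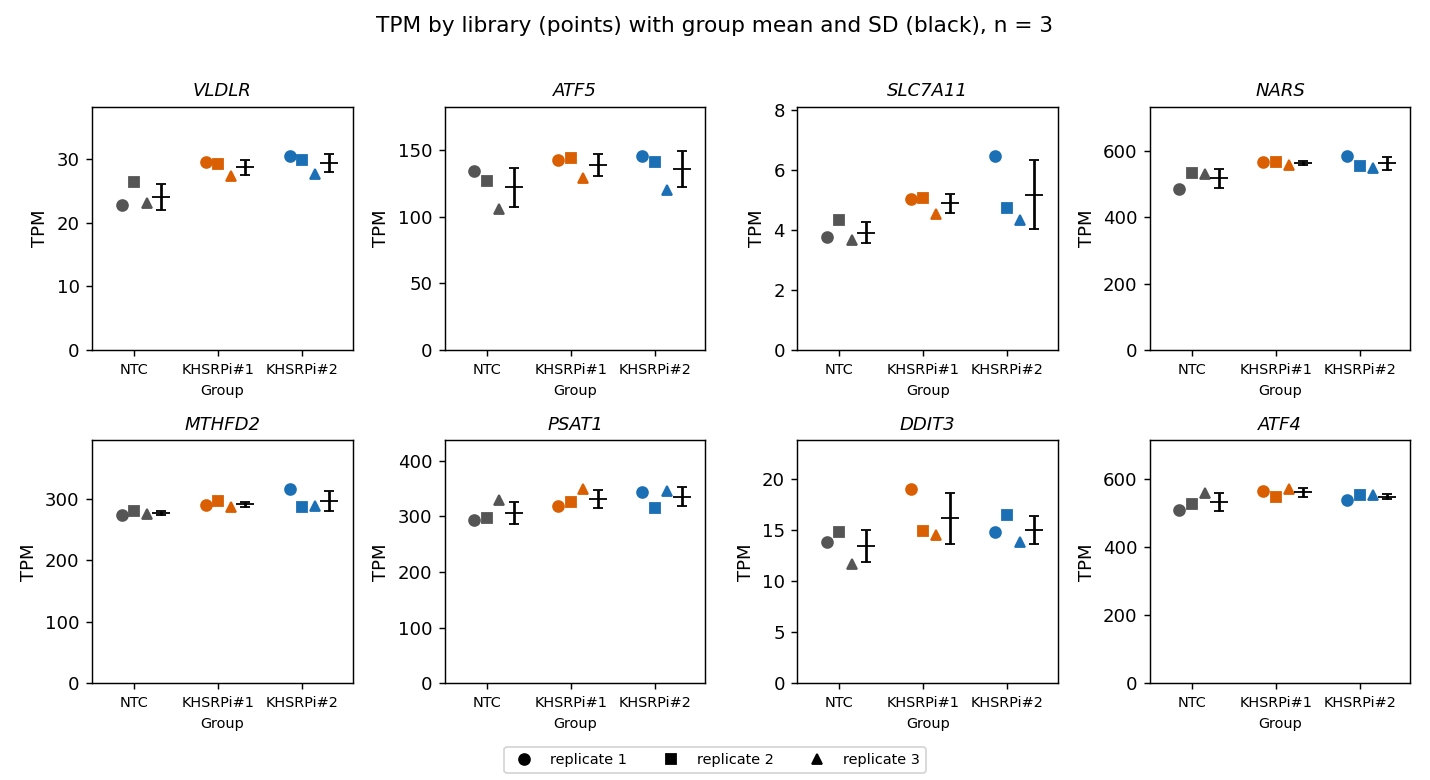
TPM in each of the 9 libraries for VLDLR, ATF5, SLC7A11, NARS, MTHFD2, PSAT1, DDIT3 and ATF4, with the mean and SD of each group in black (n = 3) and symbol shape giving the replicate; each axis starts at 0. The knockdown points of VLDLR, SLC7A11, NARS and MTHFD2 all lie above the controls, and those of ATF4 and DDIT3 overlap them.

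The replicate 3 libraries moved some of these genes more than the knockdown did. In 13 of 30 genes replicate 3 was above both other replicates in all 3 groups, against 26.0% of all tested genes, and in 4 of 30, ATF5, DDIT3, PPP1R15A and SLC7A11, it was below both, against 16.6%. DDIT4 in replicate 3 was above the mean of replicates 1 and 2 by 0.60 in NTC, 0.63 in KHSRPi#1 and 0.53 in KHSRPi#2 on the log2(TPM + 1) scale. CHAC1 was above by 0.86, 0.24 and 0.22, TRIB3 by 0.42, 0.22 and 0.12, and LARS by 0.30, 0.24 and 0.19. In the other direction PPP1R15A differed by -0.40, -0.30 and -0.44, ATF5 by -0.30, -0.15 and -0.25, and DDIT3 by -0.27, -0.20 and -0.17. Known ATF4 targets thus lay on both sides. The endoplasmic reticulum chaperones CALR and HSPA5, of other arms of the unfolded protein response, differed in replicate 3 by a mean over the groups of -0.55 and -0.47. Over the 12 genes of that list the median was -0.12, with 5 below and 1 above both other replicates in all 3 groups. These values are a description with no test, and what replicate 3 differs in is not given in the labels.

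**Figure D4:**
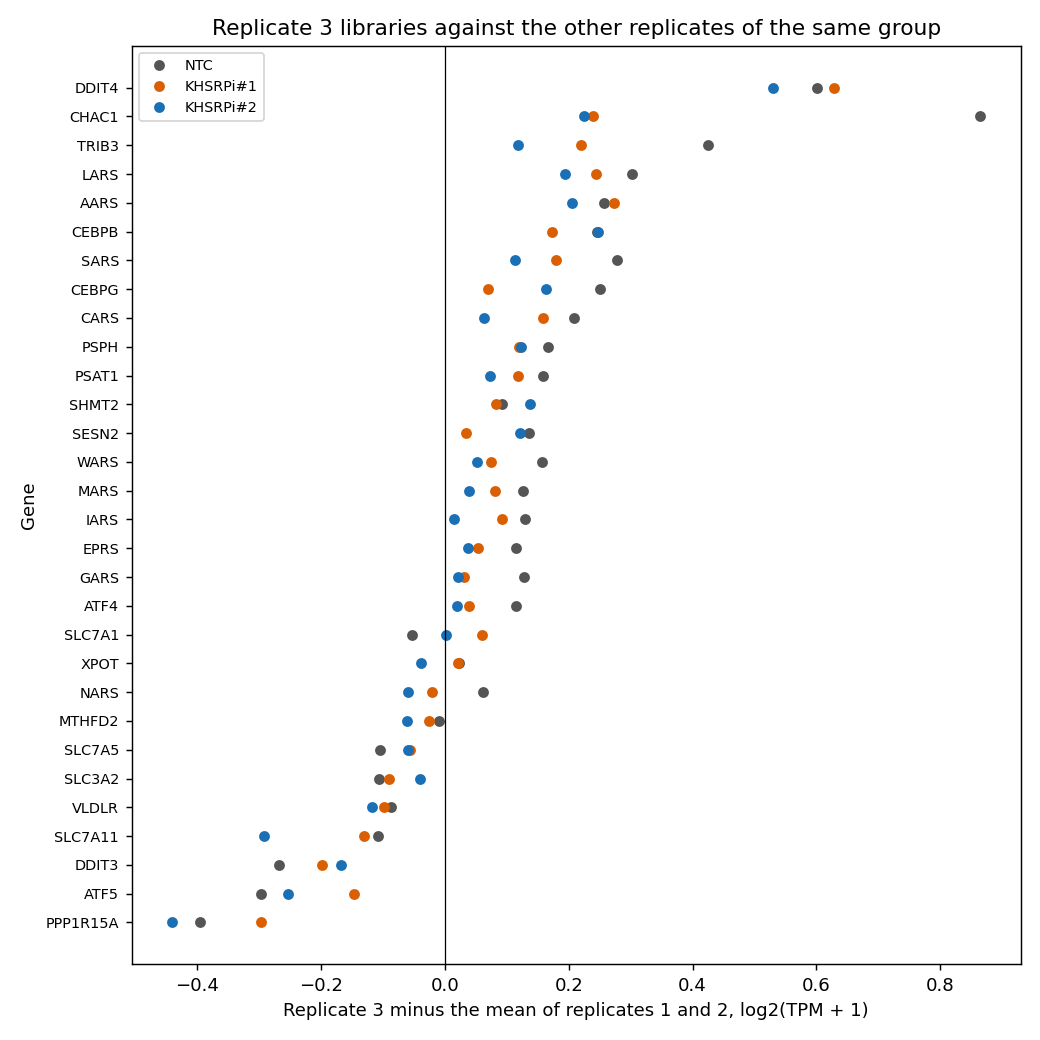
Replicate 3 minus the mean of replicates 1 and 2 of the same group on log2(TPM + 1), for the 30 tested genes, with 1 point per group. The 3 groups fall on the same side of 0 in 27 of the genes, and DDIT4 and PPP1R15A are at opposite ends.

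The 10 tested genes with the motif TGATGNAA, among them NARS and the other synthetases printed above, had log2 fold changes of 0.01 to 0.12 with a median of 0.06. The 20 tested genes without a match or without a promoter window had -0.14 to 0.29 with a median of 0.08. Neither ATF5 nor VLDLR, the genes that passed with the replicate 3 term, has the motif in its windows. In replicate 3, 4 of the 10 were above both other replicates in every group and 0 below, against 9 and 4 of the 20.

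Further lists of the pathway were counted in the same fits. Over all tested genes 0.0823% were called without covariates. With the replicate 3 term 1.27% were called higher and 0.485% lower. Upstream, 17 genes of eIF2, eIF2B, the eIF2 kinases and their regulators had 0 called in either fit, with 12 of 17 above 0 and a median log2 fold change of 0.05; EIF2B3, IMPACT and OMA1 had the smallest p. Of 32 other ATF4 targets 25 were tested, 16 were above 0 with a median of 0.03, and 0 were called without covariates. With the replicate 3 term 1 of these 25 rose, PCK2, the mitochondrial phosphoenolpyruvate carboxykinase, against 1.27% of all tested genes. PCK2 read 38.5 ± 5.00 TPM in NTC, 42.9 ± 4.90 in KHSRPi#1 and 45.1 ± 6.04 in KHSRPi#2 (SD, n = 3 each; log2 fold change 0.19, limma adjusted p = 0.691, and 0.0456 with the term). That call held without NTC replicate 1 and was lost without any of the other 8 libraries, with adjusted p-values up to 0.222. RIOK3, ATF3 and ZNF165 had the smallest p in that list, where the log2 fold changes ran from -0.25 to 0.34. With the term 10 of the 25 had an unadjusted p under 0.05 in limma, against 17.5% of all tested genes. Of these 10, 5 were higher in the knockdown and the rest lower.

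Of 14 other amino acid transporters 12 were tested, with 0 called in either fit, 10 above 0 and a median of 0.06; SLC43A1, SLC6A9 and SLC36A4 had the smallest p. The 13 other genes of cytosolic tRNA charging also had 0 called, 9 above 0 and a median of 0.04, with QARS, KARS and VARS first. The 17 mitochondrial synthetases had 12 above 0, a median of 0.04 and 0 called without covariates.

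The 12 genes of the other arms of the unfolded protein response had 0 called in either fit and a median log2 fold change of 0.08, with ERN1, HERPUD1 and DNAJB9 first by p. All 12 were above 0, but only 7 of 12 without NTC replicate 3.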

How the data were processed

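RNA from 9 CAL-1 libraries was sequenced. Values are TPM by gene symbol in 1 table deposited by the authors, scaled to transcript length and to the same total in each library. The submitters' processing notes name hg38; aligner version, counting method, annotation and strand setting were not given in the sources used here. Groups and replicate numbers came from the sample titles. Depth in reads is unknown, so precision comes from the spread of replicates.

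The 10939 genes averaging at least 1 TPM were tested on log2(TPM + 1) in limma 3.58.1 (R 4.3.3; trended eBayes, two-sided). One fit held all 3 groups without covariates, since groups of 3 need a shared spread. Benjamini-Hochberg adjustment ran over the 10939 genes, and an adjusted p under 0.05 counted as a call. The code was tested on simulated data. Alternatives were other pseudocounts, filters, scalings and variance settings, a replicate block, a term for replicate 3, and leaving out each library; combinations of the replicate 3 term with other choices were added after seeing the data. The members, the lists and the replicate 3 term were chosen with earlier results of these data known. Values by library are given for the transcription factors, members called in any fit, those with the largest and lowest fold changes or smallest p, the most abundant of each role and those under 1 TPM; MTHFD2 and CHAC1 were added after their values were seen. Older symbols in the table (such as NARS for NARS1) were matched through RefSeq synonyms. Exon overlaps are from GENCODE 29 and promoter windows from RefSeq (GRCh38.p14). Figures were drawn with matplotlib 3.10.9 in Python 3.11.15. One gene of the mitochondrial list, and that list's count with the replicate 3 term, are not reported here.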

Additional observations from a re-analysis of the deposited data

How the results depend on the processing

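In the fits without a replicate 3 term or block, the count of genes called remained 0 of 30 in all 4 contrasts under other pseudocounts, filters, scalings, variance settings, replicates 1 and 2 alone and without each library. For the mean of the knockdown groups the count was 1 (VLDLR) with the replicate block, 2 (ATF5 and VLDLR) with the replicate 3 term, and 1 when that term was combined with median-ratio rescaling or with quantile normalization; these combinations also gave 1 (VLDLR) for KHSRPi#1 and 1 for KHSRPi#2. Leaving out each library gave 0 to 1 with the block and 0 to 1 with the term, in each contrast against control. With the replicate block the adjusted p of VLDLR was 0.0313. Same-numbered libraries correlated at 0.0398 to 0.628 (9 pairs, deviations from group means) and differently numbered ones at -0.487 to 0.371 (18 pairs). Pairs of replicate 3 lay at 0.622 to 0.628, and same-numbered pairs of replicates 1 and 2 at 0.0398 to 0.324. Numbers 1 and 2 were therefore not taken to pair the libraries, and replicate 3 was given a term of its own in the second fit. Over all tested genes 9 were called without covariates, 152 with the block and 192 with the replicate 3 term. Over 40 alternatives the adjusted p of VLDLR ran from 0.0146 to 0.834 and its log2 fold change from 0.20 to 0.33. The median over the 30 genes stayed between 0.04 and 0.11.

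The fold change of SLC7A5, which is near 0, turned negative under median-ratio rescaling (adjusted p = 0.997), without NTC replicate 3 (0.932), without KHSRPi#1 replicate 2 (0.998), without KHSRPi#2 replicate 1 (0.992), with the block without KHSRPi#1 replicate 2 (0.911) or KHSRPi#2 replicate 1 (0.987), and with the replicate 3 term without NTC replicate 2 (0.963), without KHSRPi#2 replicate 1 (0.977) or with median-ratio rescaling (0.988). Without NTC replicate 3 the fold changes of CEBPB (0.981), DDIT4 (0.922) and SHMT2 (0.985) turned positive. Without each library in turn the adjusted p ran from 0.904 to 0.998 for SLC7A5, 0.754 to 0.998 for CEBPB, 0.722 to 0.998 for DDIT4 and 0.803 to 0.998 for SHMT2. The cause was not tested. Precision is limited by 3 libraries a group and an unknown depth; without covariates the largest SE of a log2 fold change were those of DDIT4 (0.19) and CHAC1 (0.18).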
